A study of Mus musculus with 9 samples.

Results

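The genes described here encode 5 interferon-linked parts of the proteasome and the 3 catalytic subunits of its constitutive form. They were chosen by name: the immunoproteasome subunits Psmb8, Psmb9 and Psmb10, the activator subunits Psme1 and Psme2, and the constitutive subunits Psmb5, Psmb6 and Psmb7. All 8 had a probe set of their own, among 19752 genes measured. Expression was measured on 9 Affymetrix arrays in macrophages of the peritoneal cavity, from male C57BL/6 mice of 6 weeks of age. One group was given recombinant interferon alpha, a type I interferon, at 10000 U (IFNa, n = 4). Another was given recombinant interferon gamma, which signals through the type II receptor, at 8000 U (IFNg, n = 2). The last had no treatment (n = 3, titled SPF), and both interferons are compared with these same arrays. Interferon was injected under the skin 2 h before the cells were taken. All cells went through a double sort from the peritoneal lavage. The labels give F4/80 and ICAM2 as sort markers of the treated samples and F4/80 alone for the untreated ones. No mice injected with vehicle alone are among these samples, so interferon and injection cannot be told apart. The sort labels also divide treated from untreated samples, so a difference in sorting cannot be told apart from treatment. The labels do not say whether each array holds RNA of 1 mouse, and p-values measure the spread between these arrays only.

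The proteasome is the barrel-shaped protease that degrades proteins marked with ubiquitin. Its core holds 3 kinds of proteolytic subunit, encoded by Psmb5, Psmb6 and Psmb7. Cells exposed to interferon, and many immune cells at rest, build cores in which PSMB8 (LMP7) takes the place of PSMB5, PSMB9 (LMP2) that of PSMB6 and PSMB10 (MECL-1) that of PSMB7. These immunoproteasomes change which peptides are cut and so which peptides MHC class I molecules can show to CD8 T cells. PSME1 and PSME2 (PA28 alpha and beta) form a ring that caps the core and opens it. In the mouse, Psmb9 and Psmb8 lie in the MHC beside Tap1 and Tap2, which encode the transporter that carries peptides into the endoplasmic reticulum.

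Upstream sequences are shown because Psmb9 and its neighbour Tap1 start on opposite strands of 1 short stretch, and both genes rose. Sequences are from RefSeq (GRCm38.p6), which had an entry for 7 of the 8 genes (not Psmb7). Between the annotated starts of Psmb9 and Tap1 lie 225 bases, at chr17:34187331-34187555, read here on the minus strand toward Psmb9, with 61.3% G or C:
Psmb9 and Tap1, between starts: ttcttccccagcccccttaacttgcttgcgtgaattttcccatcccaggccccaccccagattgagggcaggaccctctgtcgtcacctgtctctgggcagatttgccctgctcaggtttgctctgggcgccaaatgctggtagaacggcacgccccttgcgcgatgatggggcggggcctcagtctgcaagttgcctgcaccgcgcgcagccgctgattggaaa

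Windows of 300 bases (250 before and 50 after each start) were searched on both strands for 3 short motifs, and no matches in the 7 genes overlapped each other. GAAA, any 2 bases and GAAA again, a form of the element bound by interferon regulatory factors, was in 3.44% of all 32851 windows and matched 1 of the 7 genes. That match was in Psme1, read as TTTCGCTTTC at bases 9 to 18 after the start. TTCNNNGAA, a palindrome found in many interferon gamma responsive promoters, was in 8.30% of windows and matched Psmb8 only, at 97 to 89 bases before its start. TGACNNNGC, the core of the element bound by NFE2L1, a factor known to drive proteasome genes, was in 12.39% of windows and matched Psmb5 and Psmb6. The matches of Psmb8, Psmb5 and Psmb6 are shown in capitals within 60 bases, beside a stretch from Psmb10 and one from Psme2, in which none of the 3 matched. A match here is a run of letters and does not show binding. Nor does the lack of a match show that a gene has no such element.
Psmb8, chr17:34198075-34198134, plus strand: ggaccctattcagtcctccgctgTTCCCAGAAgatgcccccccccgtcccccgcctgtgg
Psmb10, chr8:105938393-105938452, minus strand: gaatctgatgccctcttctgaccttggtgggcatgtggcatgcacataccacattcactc
Psme2, chr14:55591102-55591161, minus strand: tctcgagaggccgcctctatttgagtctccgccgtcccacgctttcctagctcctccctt
Psmb5, chr14:54617996-54618055, minus strand: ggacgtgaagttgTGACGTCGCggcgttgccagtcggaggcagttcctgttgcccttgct
Psmb6, chr11:70525297-70525356, plus strand: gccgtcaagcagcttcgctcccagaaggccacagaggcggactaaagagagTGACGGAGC

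Before the results, 2 arrays need mention. IFNa replicate 4 and untreated replicate 1 had the narrowest intensity ranges, with an upper quartile over the lower of log2 2.16 and 2.27, against 2.68 to 3.03 in the other 7. Untreated replicate 1 gave the lowest of all 9 values for 7 of the 8 genes, all but Psmb9, and for 17.8% of all genes. The changes of the 8 genes are therefore given with and without these 2 arrays. Among markers of large peritoneal macrophages, Adgre1 (F4/80) differed from untreated by log2 0.04 ± 0.10 (standard error) after IFNa and 0.01 ± 0.12 after IFNg, and Icam2 by -0.24 ± 0.14 and 0.05 ± 0.17. Gata6 alone passed among 9 such markers and was lower in both, by log2 -1.05 ± 0.17 after IFNa and -1.16 ± 0.21 after IFNg (limma, adjusted p = 0.00997 and 0.0242). None passed in the lists for other cells (mesothelium, granulocytes, mast cells, lymphocytes of the B, T and NK lines, and small macrophages together with monocytes and dendritic cells). The largest change from untreated in those lists was that of the mast cell gene Cpa3, at log2 -0.76 ± 0.26 after IFNa and -1.10 ± 0.31 after IFNg. The summed intensity of 5 B cell markers ranged from 471 to 1885 in IFNa, 504 to 554 in IFNg and 608 to 925 in untreated arrays, and its part in the results was not tested. In such bulk samples, fewer cells of a type and less RNA per cell cannot be told apart.

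Intensities below are the deposited values on a linear scale. Tests are limma fits over all 19752 genes, with p-values adjusted by the Benjamini-Hochberg method, and a gene passed at an adjusted p under 0.05. Psmb9 and Psme2 rose after IFNa, and Psmb9 rose after IFNg. These are 2 of the 8 genes after IFNa, where 2.65% of all genes passed (1.79% as higher), and 1 of the 8 after IFNg, where 1.35% passed (1.24% as higher). None of the 8 was called lower, and no constitutive subunit passed in any comparison (none at an unadjusted p under 0.05 either). At that unadjusted level lay 4 of the 8 genes after IFNa, as did 11.9% of all genes, and 5 of the 8 after IFNg, as did 8.23%. The arrays of IFNa and untreated mice did not overlap for 4 of the 8 genes (Psmb8, Psmb9, Psme1 and Psme2), as for 3.68% of all genes in the same direction. Those of IFNg and untreated mice did not overlap for 5 of the 8, with Psmb10 in addition, as for 12.3% of all genes. None of the 8 had all treated arrays below all untreated ones, as 6.75% of genes had after IFNa and 15.5% after IFNg.

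**Figure D1:**
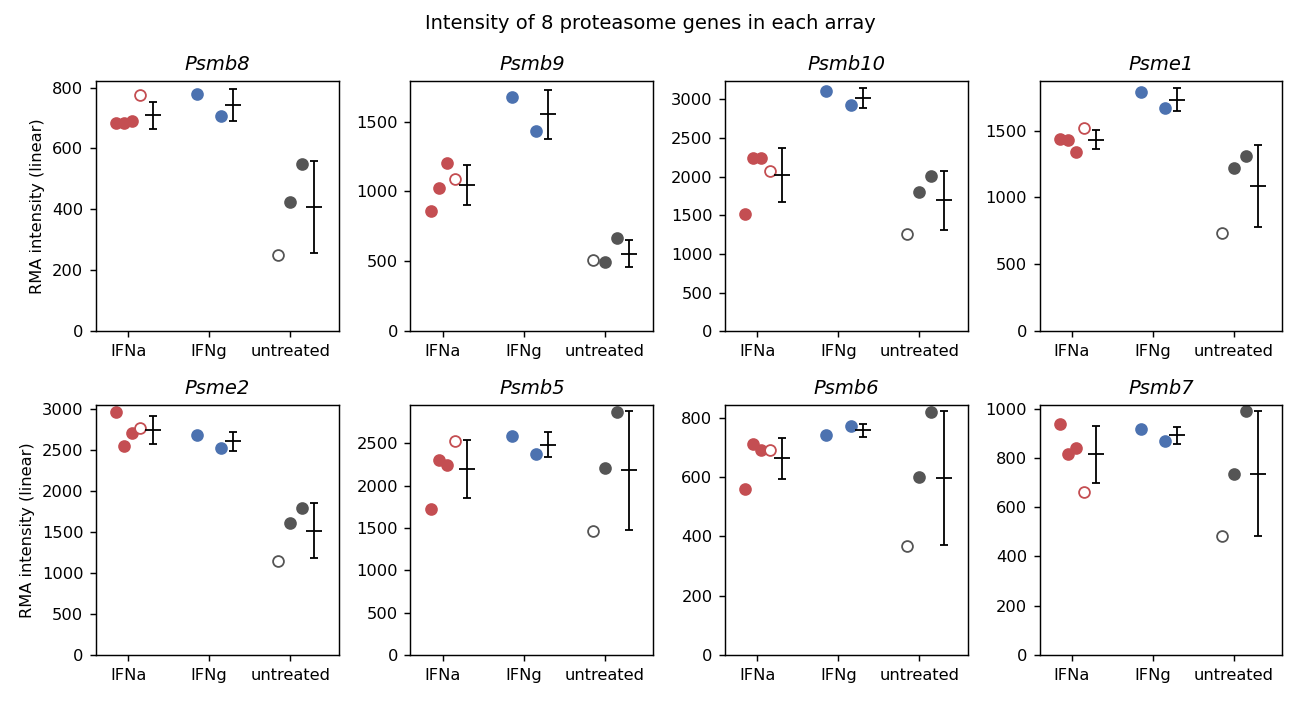
Linear RMA intensity (vertical axis, from 0) of the 8 genes in each array, by group; points are arrays, bars the mean ± SD beside them, and open points the 2 arrays of narrow intensity range. Psmb9 showed 3 separate groups, from IFNg at the top to untreated at the bottom, whereas the untreated arrays of Psmb5, Psmb6 and Psmb7 spanned the treated ones.

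Psmb9 replaces the caspase-like subunit. Its intensity was 858.6, 1026.6, 1206.8 and 1090.6 in the 4 IFNa arrays, 1676.0 and 1429.8 in the 2 IFNg arrays, and 508.6, 493.1 and 664.8 in the 3 untreated arrays. All treated arrays lay above all untreated ones, and both IFNg arrays lay above every IFNa array. The log2 change was 0.92 ± 0.16 after IFNa (1.89-fold, adjusted p = 0.0126) and 1.49 ± 0.19 after IFNg (2.81-fold, adjusted p = 0.0038). After IFNg, 132 genes (0.668%) had a larger change. Without untreated replicate 2 the IFNa call was lost (adjusted p = 0.0837), and without IFNg replicate 1 the IFNg call was lost (0.0862). Both calls held without the 2 narrow arrays, at log2 0.83 and 1.43 (adjusted p = 0.0359 and 0.00843).

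Psmb8 replaces the chymotrypsin-like subunit. It measured 684.7, 684.3, 690.8 and 775.6 in IFNa, 779.0 and 705.6 in IFNg, and 250.0, 424.9 and 550.3 in untreated arrays. The treated arrays lay close together and above all untreated ones, which differed from each other by more than 2-fold. The changes of log2 0.87 ± 0.23 after IFNa and 0.93 ± 0.27 after IFNg did not pass (adjusted p = 0.0954 and 0.235). Without untreated replicate 3, the highest of its group, both passed (0.024 and 0.044), and quantile normalization between arrays let the IFNa change pass (log2 0.91, adjusted p = 0.0402). Leaving out the 2 narrow arrays gave 0.51 and 0.62 (adjusted p = 0.0538 and 0.0605).

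Psmb10 replaces the trypsin-like subunit. It measured 1516.5, 2241.8, 2247.4 and 2075.3 in IFNa, 3106.6 and 2929.8 in IFNg, and 1263.6, 1803.4 and 2007.6 in untreated arrays. The IFNg arrays stood above all others, while the IFNa and untreated arrays overlapped. The log2 change was 0.27 ± 0.19 after IFNa (adjusted p = 0.75) and 0.86 ± 0.23 after IFNg (1.82-fold, adjusted p = 0.172), and neither passed. With the 2 narrow arrays left out they were 0.05 and 0.67 (adjusted p = 0.933 and 0.166).

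Psme2, the beta subunit of the PA28 cap, measured 2960.5, 2546.9, 2707.6 and 2764.1 in IFNa, 2683.3 and 2522.5 in IFNg, and 1144.2, 1610.5 and 1792.0 in untreated arrays. Both treated groups lay above the untreated one and overlapped each other. It rose by log2 0.88 ± 0.16 after IFNa (1.84-fold, adjusted p = 0.0148), and its 0.81 ± 0.19 after IFNg did not pass (adjusted p = 0.0905). The IFNa call was lost without IFNa replicate 1 (0.0555) or untreated replicate 2 (0.0535). The IFNg change passed without untreated replicate 3 (0.0374), and without the 2 narrow arrays both changes passed, at log2 0.69 and 0.61 (adjusted p = 0.0084 and 0.0315). A further probe set assigned jointly to Psme2 and Psme2b was not used.

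Psme1, the alpha subunit of that cap, measured 1439.5, 1426.3, 1343.5 and 1518.7 in IFNa, 1791.8 and 1670.9 in IFNg, and 733.8, 1219.2 and 1307.1 in untreated arrays. The 3 groups did not overlap, but the lowest IFNa array lay just above the highest untreated one. Its changes of log2 0.44 ± 0.19 after IFNa and 0.72 ± 0.22 after IFNg did not pass (adjusted p = 0.378 and 0.307). On the 7 other arrays they were 0.15 and 0.45 (adjusted p = 0.45 and 0.0589).

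Among the constitutive subunits, Psmb5 (chymotrypsin-like) measured 1721.8, 2304.6, 2240.6 and 2534.0 in IFNa, 2590.9 and 2378.6 in IFNg, and 1461.0, 2208.1 and 2871.8 in untreated arrays. Psmb6 (caspase-like) measured 558.2, 711.3, 691.5 and 689.9 in IFNa, 741.4 and 773.5 in IFNg, and 368.4, 600.5 and 819.0 in untreated arrays. Psmb7 (trypsin-like) measured 939.4, 815.2, 841.4 and 661.4 in IFNa, 917.5 and 867.6 in IFNg, and 483.1, 734.5 and 991.1 in untreated arrays. In all 3 genes the untreated arrays held both the lowest and the highest value of the 9. The log2 differences from untreated were 0.05 ± 0.22, 0.22 ± 0.23 and 0.20 ± 0.22 after IFNa for Psmb5, Psmb6 and Psmb7. After IFNg they were 0.24 ± 0.26, 0.42 ± 0.28 and 0.34 ± 0.27, with adjusted p of 0.723 to 0.979 over these 6 values. Their 95% confidence intervals reached from -0.44 to 0.55 for Psmb5 after IFNa and from -0.20 to 1.04 for Psmb6 after IFNg. Such intervals allow a fall, no difference or a rise within these limits. Without the 2 narrow arrays the differences were -0.28, -0.11 and 0.02 after IFNa, and -0.02, 0.11 and 0.06 after IFNg.

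**Figure D2:**
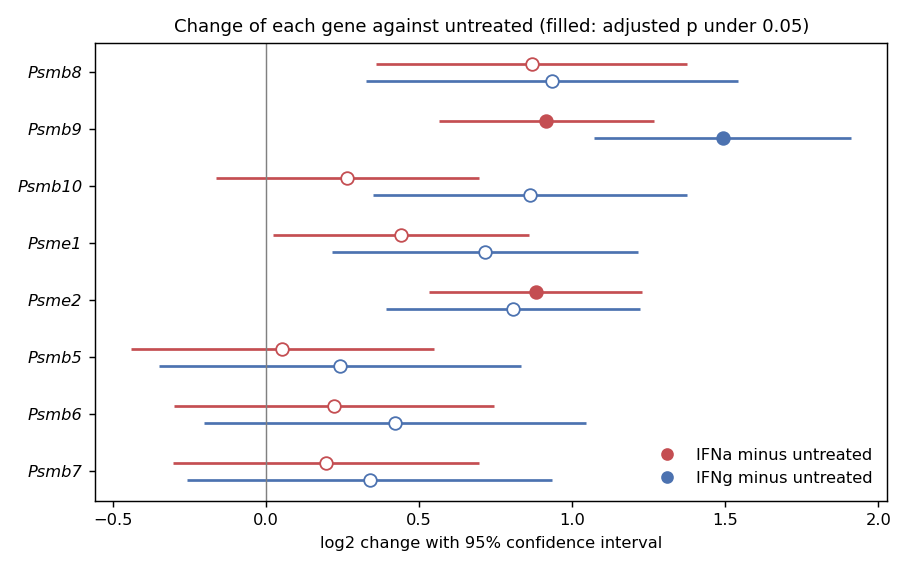
Log2 change (horizontal axis) of each gene after IFNa and after IFNg against untreated, with 95% confidence intervals from the limma fit; filled points passed at an adjusted p under 0.05. Psmb9 (0.92 and 1.49) and, after IFNa, Psme2 (0.88) passed, and the intervals of Psmb5, Psmb6 and Psmb7 include 0.

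In the direct comparison of the interferons, whose doses in units differed, none of the 8 genes passed (limma; 0.977% of all genes did, 0.537% as lower). An unadjusted p under 0.05 was reached by 2 of the 8, as by 7.07% of all genes. These were Psmb9 and Psmb10, which differed by log2 -0.58 ± 0.18 and -0.60 ± 0.22 in IFNa minus IFNg (adjusted p = 0.319 and 0.497), or -0.60 and -0.62 without the 2 narrow arrays (adjusted p = 0.172 and 0.152). The other 6 genes differed by log2 -0.30 to 0.07 without those arrays, and none passed. The IFNa arrays lay below both IFNg arrays for Psmb9, Psmb10, Psme1 and Psmb6, that is 4 of 8 genes, as for 15.6% of all genes. Psmb8 (-0.07, 95% confidence interval -0.64 to 0.51) and Psme2 (0.08, -0.32 to 0.47) had similar means in both interferon groups, with intervals that allow a difference in either direction. In order of mean level, 7 of the 8 genes ran IFNg, IFNa, untreated, and Psme2 ran IFNa, IFNg, untreated. The share of all genes with each order was not counted. Without the 2 narrow arrays untreated was no longer lowest for Psmb5 (log2 -0.28 after IFNa and -0.02 after IFNg) or Psmb6 (-0.11 after IFNa). Between groups next to each other in these orders, the test passed for Psmb9 in IFNa against untreated, and for no other gene or step.

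Each immunoproteasome subunit was also set against the subunit it replaces, as the difference of their log2 values within an array, with the untreated mean set to 0. This measures unequal change and not which gene is more abundant. Psmb8 minus Psmb5 was 1.11, 0.68, 0.74 and 0.73 in IFNa, 0.70 and 0.68 in IFNg, and -0.11, 0.06 and 0.05 in untreated arrays. The untreated arrays, far apart for either gene alone, lay close together in this difference and below all treated ones. The mean shift was 0.81 after IFNa and 0.69 after IFNg.

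Psmb9 minus Psmb6 was 0.66, 0.57, 0.84 and 0.70 in IFNa, 1.22 and 0.93 in IFNg, and 0.51, -0.24 and -0.26 in untreated arrays. All treated arrays again lay higher, by 0.69 and 1.07 on average, although untreated replicate 1 came close to the IFNa arrays. Psmb10 minus Psmb7 was -0.54, 0.23, 0.18 and 0.42 in IFNa, 0.53 and 0.52 in IFNg, and 0.15, 0.06 and -0.22 in untreated arrays. This difference was higher in both IFNg arrays (0.52 on average), while the IFNa arrays, 0.07 on average, spanned the untreated ones, and IFNa replicate 1 was the lowest of all 9. Two-sided exact permutation tests gave p = 0.0571 for Psmb8 minus Psmb5 and for Psmb9 minus Psmb6 after IFNa, 0.743 for Psmb10 minus Psmb7 after IFNa, and 0.2 for each pair after IFNg. The smallest p that 4 against 3 arrays can give is 0.0571 and that of 2 against 3 is 0.2, so no pair could pass. Adjusted over the 6 tests, p was 0.171, 0.743 and 0.24 in that order. Without the 2 narrow arrays the shifts were 0.79, 0.94 and 0.03 after IFNa and 0.64, 1.32 and 0.60 after IFNg.

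**Figure D3:**
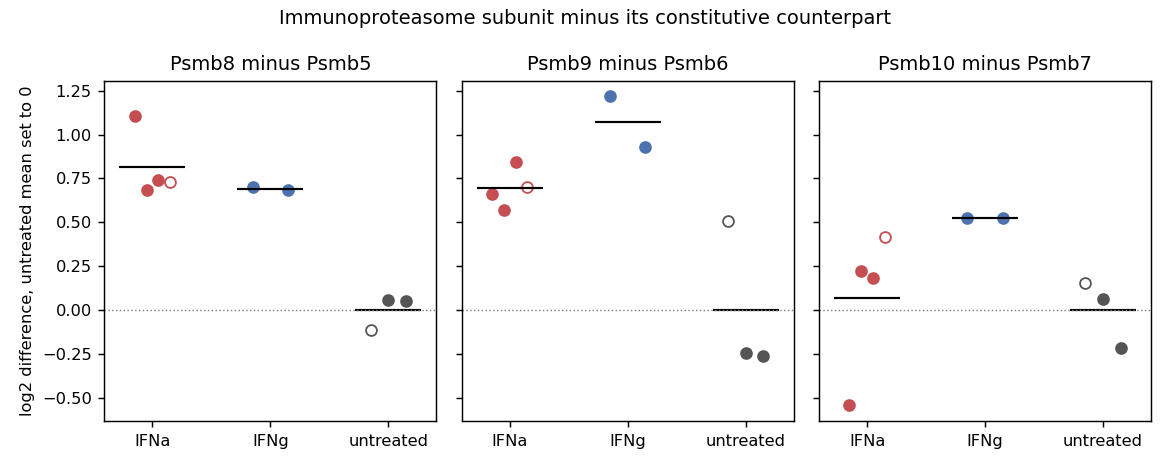
Within-array log2 difference between each immunoproteasome subunit and the constitutive subunit it replaces (vertical axis, untreated mean set to 0), by group; points are arrays, lines group means, and open points the 2 arrays of narrow range. All treated arrays lie above all untreated ones for Psmb8 minus Psmb5 and Psmb9 minus Psmb6, but the IFNa arrays overlap the untreated ones for Psmb10 minus Psmb7.

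Of 13 other subunits of the 20S core, 21 of the 19S particle that feeds substrates into it, 3 other activators and inhibitors, and 13 assembly and expression factors, none passed after IFNa or IFNg. At an unadjusted p under 0.05, the numbers were 3, 6, 1 and 3 after IFNa and 2, 3, 0 and 3 after IFNg, against 11.9% and 8.23% of all genes. The median log2 change of the other core subunits was 0.41 after IFNa and 0.44 after IFNg, against -0.02 and -0.06 over all genes, and that of the 19S particle was 0.23 and 0.38. Without the 2 narrow arrays these medians were 0.20 and 0.18 for the core and 0.14 and 0.19 for the 19S particle. The cause of this difference was not tested. The largest values belonged to the core subunit gene Psma6 after IFNa (0.94 ± 0.31, adjusted p = 0.214) and the 19S gene Psmd7 after IFNg (0.91 ± 0.33, adjusted p = 0.463). Under quantile normalization 2 further genes passed after IFNa, Psme4 and Pomp (adjusted p = 0.0349 and 0.0432). In that fit 958 of all genes passed after IFNa, against 523 in the main fit. In the main fit Psme4, which encodes the activator PA200, had 0.64 ± 0.16 after IFNa (adjusted p = 0.0798). Pomp, a chaperone of core assembly, had 0.55 ± 0.21 after IFNa (adjusted p = 0.296) and 0.69 ± 0.25 after IFNg (adjusted p = 0.444). Without untreated replicate 3, Psma6 passed after IFNa (0.0362), as did Psma3 (1.23, adjusted p = 0.0056) and Psmd7 (1.25, adjusted p = 0.00739). In that fit 2 core and 3 19S genes passed after IFNa, and 1 of each after IFNg, while 2.76% and 1.98% of all genes did.

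Of 25 listed MHC class I genes and genes that transport, trim and load peptides, 18 were measured. Of these 18, 2 rose after each interferon and none fell, while 1.79% of all genes rose after IFNa and 1.24% after IFNg. H2-K1, H2-D1, H2-T22, H2-T23, H2-Q6, H2-Q7 and Lnpep had no probe set of their own and were not tested. Tap1 measured 1883.3, 1815.0, 2031.5 and 2255.5 in IFNa, 2867.6 and 2725.4 in IFNg, and 523.2, 625.3 and 651.0 in untreated arrays. It rose by log2 1.74 ± 0.12 after IFNa (3.33-fold, adjusted p = 4.42e-05) and 2.23 ± 0.15 after IFNg (4.68-fold, adjusted p = 7.37e-05), a larger change than that of Psmb9, with which it shares the stretch printed above, after each interferon. H2-T24, a class I gene of the MHC, rose by 2.52 and 1.96 (adjusted p = 1.21e-05 and 0.000475). Tap2, the other transporter gene, on the far side of Psmb8, had 0.12 ± 0.10 and 0.45 ± 0.12 (adjusted p = 0.808 and 0.189), and the IFNg value passed without the 2 narrow arrays (0.51, adjusted p = 0.0292). The median over the 18 was 0.21 after IFNa and 0.45 after IFNg. The number that rose after IFNa was 5 without untreated replicate 3 and 4 under quantile normalization. Over all genes, 2.76% passed after IFNa without untreated replicate 3, and 958 genes under quantile normalization, against 2.65% (523 genes) in the main fit.

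Of 9 measured interferon-activated transcription factors and regulators of class I genes, 3 rose after IFNa and 5 after IFNg. Over all genes, 1.79% rose after IFNa and 1.24% after IFNg. Irf1, known to activate Psmb9 and Tap1, rose by log2 2.39 ± 0.21 after IFNa and 3.50 ± 0.26 after IFNg. Its intensity was 2809.2 to 3073.0 in IFNa, 6082.8 and 6398.0 in IFNg, and 357.6 to 716.2 in untreated arrays. The difference between the interferons (-1.11 ± 0.24, IFNa minus IFNg) did not pass (adjusted p = 0.0871). It passed under quantile normalization (0.0151), in a fit of these groups alone (0.00615), and without untreated replicate 1 (0.00165) or the 2 narrow arrays (0.000594). Over the fits without 1 array the difference was log2 -1.15 to -1.07, and not every such fit passed. Stat2, which carries the type I signal, rose by 3.07 and 2.50, and Batf2 by 1.57 and 3.36. Irf8, a partner of IRF1, and Ciita, the activator of MHC class II genes, rose after IFNg (1.98 and 1.77) and had -0.09 and 0.13 after IFNa. Batf2, Irf8 and Ciita were lower in IFNa than in IFNg arrays by the direct test (-1.79, -2.08 and -1.64, adjusted p = 0.00421, 0.000506 and 0.000781), the call of Batf2 being lost without IFNg replicate 1 (0.0967). Nlrc5, the class I transactivator, had 0.83 ± 0.23 and 1.00 ± 0.28 and did not pass (adjusted p = 0.117 and 0.199). It did pass without the 2 narrow arrays (0.94 and 1.25, adjusted p = 0.0042 and 0.00251), and after IFNa also without untreated replicate 1 alone (0.0288). Together with Irf9 it moved the number that rose after IFNa to 5 in those 2 fits. Without the 2 narrow arrays, 1106 and 503 of all genes passed after IFNa and IFNg, against 523 and 267 in the main fit.

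**Figure D4:**
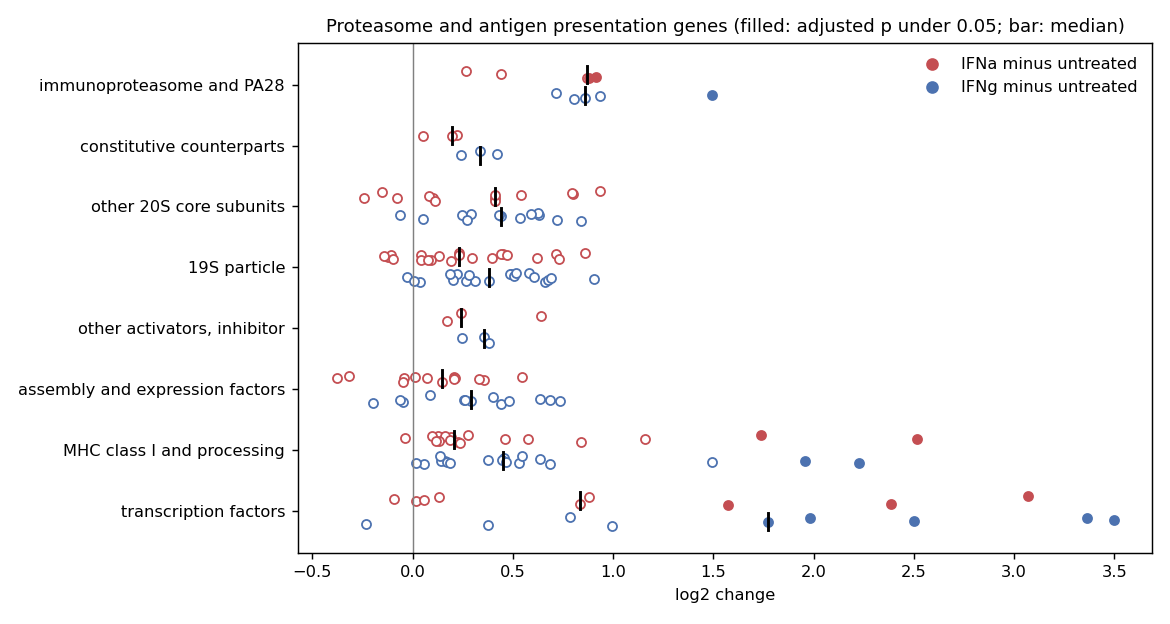
Log2 change after IFNa and after IFNg against untreated (horizontal axis) for the genes of 8 groups; points are genes, filled where they passed at an adjusted p under 0.05, and bars are group medians. Changes that passed lie among the immunoproteasome and PA28 genes, the MHC class I and processing genes and the transcription factors.

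Genomic neighbours were compared, taking the 2 nearest measured genes on either side of each member in the RefSeq order. Beside Psmb9 and Psmb8, Tap1 rose while Brd2, H2-DMa, Tap2 and H2-Ob did not pass. Beside Psme2, Rnf31, which encodes a subunit of the linear ubiquitin ligase complex, rose by log2 0.63 ± 0.13 after IFNa (adjusted p = 0.0348) and 1.10 ± 0.16 after IFNg (adjusted p = 0.00794). Its IFNa call was lost in every fit with 1 array fewer other than those without IFNa replicate 4 or untreated replicate 3 (adjusted p = 0.0651 to 0.13), and its IFNg call without either IFNg array (0.107 and 0.115). A variance trend with intensity (0.0751) or a fit of the compared groups alone (0.0816) also ended the IFNa call, and a fit of IFNg and untreated arrays alone ended the IFNg call (0.0649). For IFNa against untreated, leaving out either IFNg array gives the same result as the compared groups alone. Here and below these are 1 result and not separate losses. Irf9, the next gene beyond Rnf31, had 0.88 and 0.79 and did not pass (adjusted p = 0.0801 and 0.372). Emc9, which lies between Psme1 and Psme2, had -0.03 and -0.07. Near Psmb6, Mink1, a kinase gene, fell by 0.68 on the log2 scale after IFNa (adjusted p = 0.0227), a call that was lost (0.0507 to 0.132) when either IFNg array, IFNa replicate 1 or 3, or untreated replicate 2 or 3 was dropped, and with a variance trend (0.051) or the compared groups alone. No neighbour of Psmb10, Psmb5 or Psmb7 passed.

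Genes were also ranked by how closely their values followed a member over the 9 arrays, by the root mean square difference after centring each gene on its own mean. They were picked on the same arrays, so their tests are not independent of those of the members. Closest to Psmb9 was Il18bp, which encodes an inhibitor of interleukin-18, at 0.16 log2 units. Il18bp rose by log2 1.13 and 1.62 after IFNa and IFNg (adjusted p = 0.00136 and 0.00093). Closest to Psmb8 was Irf9, the DNA-binding partner of STAT2, at 0.12. Irf9 was also the third closest to Psme2, its genomic neighbour, at 0.13. It had 0.88 ± 0.22 and 0.79 ± 0.26 (adjusted p = 0.0801 and 0.372), and like Psmb8 it was lowest in untreated replicate 1. Closest to Psmb10 was Vta1 at 0.08, closest to Psme1 was Bst1 at 0.08, and closest to Psme2 was Zfp800 at 0.11. Of these, Zfp800 passed after IFNa (0.76, adjusted p = 0.0431), a call lost without any single array (adjusted p = 0.0512 to 0.119) other than untreated replicate 1, and also with a variance trend (0.0704), median centring (0.0573) or the compared groups alone (0.0847). Vta1 and Bst1 did not pass. Il18bp, Vta1, Bst1 and Zfp800 were also lowest in untreated replicate 1.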

How the data were processed

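The deposited values are intensity (the authors' own processing) on a linear scale, 1 per probe set and array. RMA (a joint summary of probes over arrays) and Affymetrix Power Tools are named in the submitters' processing notes; versions, the background steps and which arrays were normalized together are not given in the sources used here. Column quartiles differ between arrays. No molecules are counted on an array, so precision rests on the number of arrays.

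Values were analysed as log2. Of 24922 probe sets, 21425 carried 1 gene symbol in the platform table, 1399 several and 2098 none. Each gene was represented by its single-symbol probe set of highest mean, giving 19752 genes, with no filter on dim genes. The 3 groups were fitted together, over 9 arrays, in limma 3.58.1 (R 4.3.3; 6 residual and 3.62 prior degrees of freedom), so the 2 IFNg arrays borrow the shared spread. Errors after a log2 change are standard errors. Named genes were the 8 members, called and extreme genes of each list, 3 nearest genes by pattern, 2 neighbours on each side, and Tap1, Irf1 and Nlrc5. Not every gene the rule allows is named. The members, lists and rules were chosen with earlier results of these data known. Alternatives were a variance trend with intensity, robust variances, no dim genes (the lowest 30%), quantile normalization, median centring, the compared groups alone, every probe set, a replicate block, arrays left out, and an adjusted p under 0.01. Python 3.11.15, pandas 2.3.3, NumPy 2.4.6 and matplotlib 3.10.9 were used.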

Additional observations from a re-analysis of the deposited data

Results flagged for a closer look

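Among the 4 IFNa arrays, IFNa replicate 4 lay above the others for Psmb8 (775.6 against 684.3 to 690.8), with a gap to the nearest array of 0.925 of the group's range on the log2 scale. IFNa replicate 1 lay below the others for Psmb6 (558.2 against 689.9 to 711.3), with a gap of 0.874 of the range. Both exceed Dixon's 95% critical value for 4 samples. Of the 8 genes tested in this way 2 stood out, and chance gives about 1 in 20.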

How the results depend on the processing

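Of the 8 genes, 2 were called after IFNa, 1 after IFNg and 0 between the interferons. Leaving out 1 array gave 0 to 3, 0 to 3 and 0 to 0. An adjusted p under 0.01 left 0 after IFNa, and leaving out both narrow arrays gave 2 after IFNg (Psmb9 and Psme2). A replicate block by title number gave 2 after IFNg (Psmb9 and Psmb10) and changed no other call of the 8 genes. It ended the IFNa call of Zfp800 (adjusted p = 0.0751). The labels give numbers but no pairing, and 3 of the 7 correlations between deviations of same-numbered arrays exceeded 0.1 (-0.211 to 0.604). Over all genes, 523, 267 and 193 calls were made after IFNa, after IFNg and between the interferons. These counts became 958, 352 and 281 under quantile normalization, 827, 699 and 219 with the replicate block, 373, 119 and 199 with only the groups compared, 1106, 503 and 542 without both narrow arrays, and 288 to 600, 80 to 391 and 42 to 276 without 1 array. Signs turned for uncalled changes. For Psmb5 after IFNa these were -0.11 under quantile normalization, -0.020 with the replicate block, -0.28 without both narrow arrays, and -0.21 to 0.28 over fits without 1 array. For Psmb5 after IFNg they were -0.0013 under quantile normalization, -0.021 without both narrow arrays and -0.021 to 0.47 without 1 array. Psmb6 after IFNa turned to -0.11 without both narrow arrays and ranged from -0.088 to 0.49 without 1 array, and Psmb7 from -0.079 to 0.44, both lowest without untreated replicate 1. In IFNa minus IFNg, quantile normalization turned Psmb8 to 0.10 and Psmb7 to 0.02, and Psmb8 ranged from -0.14 to 0.0046 without 1 array. Irf8 after IFNa ranged from -0.28 to 0.031. The shift of Psmb10 minus Psmb7 after IFNa was -0.023 under quantile normalization and -0.045 to 0.28 without 1 array. The other 5 pair shifts kept their sign in every fit run, with 0.72 to 0.86 and 0.64 to 0.72 for Psmb8 minus Psmb5, 0.56 to 0.95 and 0.93 to 1.32 for Psmb9 minus Psmb6 (IFNa, IFNg), and 0.42 to 0.60 for Psmb10 minus Psmb7 after IFNg, without 1 array. Without both narrow arrays the calls of Tap1, H2-T24, Irf1, Stat2, Batf2, Il18bp and Rnf31 after each interferon, and of Mink1 and Zfp800 after IFNa, were kept (adjusted p at most 0.0281). The cause of these differences was not tested.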
